A study of Mus musculus with 14 samples.

Results

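The genes described here encode the heat shock proteins and the DnaJ (Hsp40) co-chaperones. They were chosen by symbol alone: a probe was a member when its single annotated gene symbol began with Hspa, Hspb, Hspd, Hspe or Hsph and a digit, with Hsp90, or with Dnaja, Dnajb or Dnajc and a digit. This gave 66 genes with 72 probes, among 16635 probes with a single symbol and 21582 probes on the array. By class they were 15 probes of the Hsp70 and Hsp110 families, 1 probe of the Hsp90 family (Hsp90b1), 7 probes of small heat shock proteins, 3 of the Hsp60 and Hsp10 pair, and 4, 14 and 28 probes of DnaJ classes A, B and C. The cytosolic Hsp90 genes Hsp90aa1 and Hsp90ab1 were not analysed here.

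RNA of C57Bl6 mouse fetuses was hybridised to 14 arrays of 2 colours. In the alcohol-fed group (n = 7) the mothers had blood ethanol of about 180 to 200 mg/dl from gestational day 15 to 18. In the pair-fed group (n = 7) the mothers were given maltose dextrin in its place. Each array carried 1 sample in Cy5 against 1 common pool in Cy3, made of total RNA from 7 animals fed ad libitum. Delivery was on gestational day 19. The exposure lasted 4 days by the protocol and 5 days by the sample titles. The labels name no transgene or deletion in any group and no tissue. They do not say whether a group's 7 samples came from different litters, so each p-value measures the spread between these samples alone, and that spread may be technical.

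All values below are log2 ratios of the sample over the reference pool after each array's median had been set to 0, so that a value of 1 is a 2-fold higher signal than in the pool relative to the typical probe. That the sample is the numerator is likely from the dyes in the labels, but it is not stated. With the opposite sign, every rise against the pool would be a fall, every fall a rise, and the differences between the groups would turn as well. The dyes were not swapped, so a dye effect on a probe cannot be told apart from a difference from the pool, whereas it is shared by both groups in the comparison of alcohol-fed with pair-fed. The pool counted as 1 control sample, and its own spread is left out of every test against it. A ratio says nothing about how abundant 1 gene is against another, and how far each spot lay above background is unknown. In whole RNA, fewer cells of a type and less RNA per cell cannot be told apart.

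Molecular chaperones bind proteins that are not folded, keep them from clumping and let them fold. Hsp70 proteins do this in cycles of ATP hydrolysis. DnaJ proteins deliver clients to Hsp70 and start the hydrolysis through their J domain, and Hsp110 proteins act as nucleotide exchange factors that release the client. Small heat shock proteins hold unfolded clients without ATP, Hsp60 with its lid Hsp10 encloses proteins in the mitochondrial matrix, and Hsp90 proteins act late, on signalling proteins and receptors. Many of these genes are switched on by heat shock factors when unfolded proteins gather in the cytosol. Those of the endoplasmic reticulum are instead switched on by the unfolded protein response. Others are constitutive, and some are made mainly in developing sperm.

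Placeholder values (exact 0 and the highest value of the table) made up 2.57% to 14.6% of an array, most in alcohol-fed 6 and pair-fed 6 and 7, and were treated as missing. Pearson's r between arrays over the complete probes was 0.303 to 0.752. After the group means were taken out, alcohol-fed 2, alcohol-fed 3 and pair-fed 2 stood apart: their deviations correlated with each other at 0.389 (alcohol-fed 2 and 3), 0.281 (alcohol-fed 3 and pair-fed 2) and 0.234 (alcohol-fed 2 and pair-fed 2). Results that rest on these arrays are given with and without them below. Of the 72 member probes, 68 of 62 genes had a value on at least 4 arrays of each group and were tested. The 4 others were probes of Dnajb12, Hspa14, Hsph1 and Hspb7.

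Alcohol-fed and pair-fed fetuses did not differ in any chaperone probe past the threshold. Of the 68 tested, 0 passed a limma adjusted p under 0.05, and 0 (0%) of all 20876 probes tested did. At an unadjusted p under 0.05, 1 member passed (1.47%), against 881 of all probes (4.22%). The median difference (alcohol-fed minus pair-fed) was 0.07 over the members and 0.01 over all probes, and 37 of the 68 members had a difference above 0. The groups' values overlapped for every tested member, and they did not overlap for 0.115% of all probes.

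The precision of this comparison was limited. The 95% interval of the difference reached a median of 1.15 on the log2 scale to either side for the members and 1.09 for all probes. It excluded a 2-fold difference for 4 of the 68 member probes and a 4-fold difference for 55. The 4 were Hspd1 (-0.80 to 0.97), Hspa13 (-0.99 to 0.74), Dnajc30 (-0.83 to 0.89) and Dnajc5 (-0.59 to 0.97). For the other members a 2-fold difference in at least 1 direction remained within the interval. The pooled SD between arrays of a group had a median of 1.04 over the members and 0.962 over all probes, and ran from 0.43 for Hspa4 to 2.16 for Hspa1l.

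Against the reference pool, 11 of the 68 member probes (16.2%) passed the limma adjusted threshold in alcohol-fed fetuses, of which 6 were higher and 5 lower. Of all probes, 23.5% passed, 8.02% higher and 15.5% lower. In pair-fed fetuses 10 member probes (14.7%) passed, 5 higher and 5 lower, where 21.3% of all probes passed, 7.86% higher and 13.5% lower. At an unadjusted p under 0.05, 26 members passed in alcohol-fed (38.2%, against 38.5% of all probes) and 23 in pair-fed fetuses (33.8%, against 36.1%). The member shares were near or below the background, with no test of that difference. The median ratio was 0.07 over the members and 0.01 over all probes in alcohol-fed fetuses, and 0.15 and -0.03 in pair-fed fetuses. In both groups 8 member probes were called, all in the same direction, where 13% of all probes were called in both. Both comparisons use the same pool, so these shared calls are not independent of each other. In all 13 probes were called in at least 1 group (31.8% of all probes were), and 3 of them in alcohol-fed and 2 in pair-fed fetuses alone, which does not show that the groups differ there.

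Centring affects such counts. Without it, or with quantile normalisation, the median of all probes was 0.14 in alcohol-fed and 0.09 or 0.08 in pair-fed fetuses. Of all probes, 4406 (values as deposited) or 5941 (quantile) were then called in alcohol-fed fetuses, against 4913 after centring. In pair-fed fetuses these were 3908 or 4797, against 4450. The member calls were 7 higher and 4 lower (values as deposited) or 12 higher and 5 lower (quantile) in alcohol-fed fetuses. In pair-fed fetuses they were 8 and 4 or 10 and 5. Leaving out alcohol-fed 2, alcohol-fed 3 and pair-fed 2 lowered the calls over all probes to 2882 in alcohol-fed and 3202 in pair-fed fetuses. The member split was then 3 higher and 4 lower in alcohol-fed and 2 higher and 6 lower in pair-fed fetuses. The calls lost in alcohol-fed fetuses were those of Dnajc14 (limma adjusted p = 0.099), both called probes of Dnajc2 (0.0697 for BC004043 and 0.0946 for NM_009584), Hspa12a (0.0731) and U16277 of Hspa5 (0.0743), and Dnajc28 was called lower (0.0383). In pair-fed fetuses those of Dnaja1 (limma adjusted p = 0.101), Dnajc15 (0.0597) and Dnajc7 (0.0525) were lost, and Dnajc3 was called lower (0.0325). Leaving out single arrays gave as few as 6 member calls in pair-fed fetuses (without pair-fed 7), where 3684 of all probes were called.

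**Figure D1:**
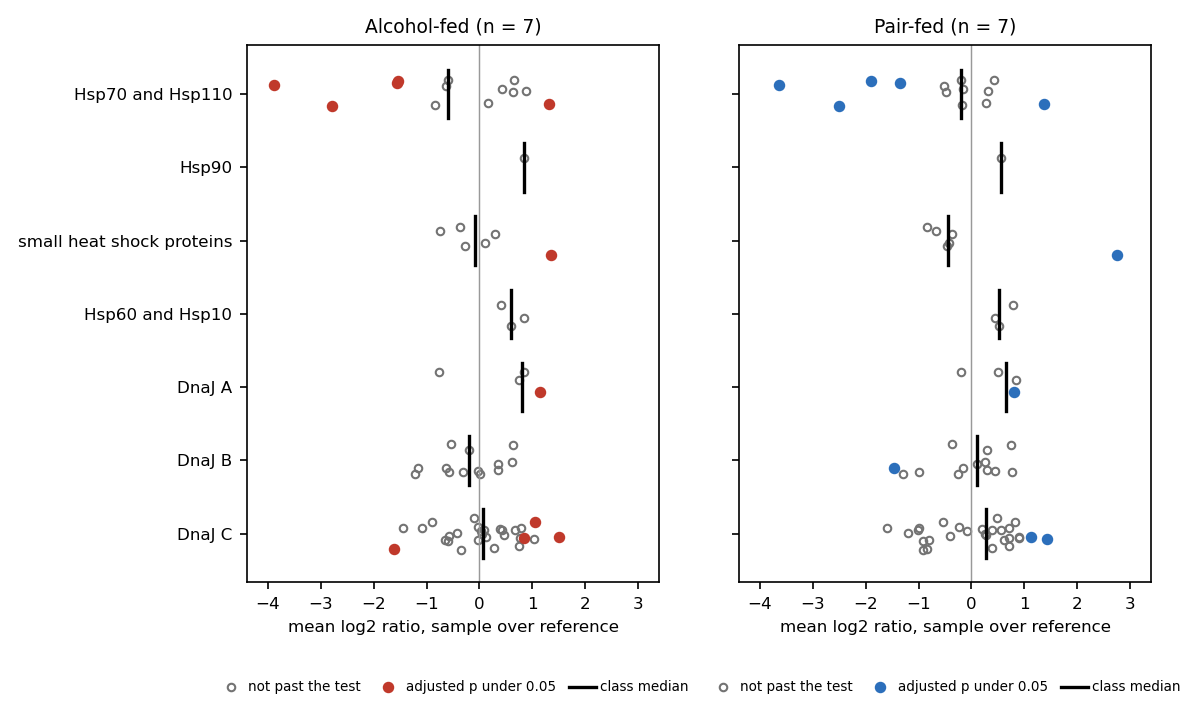
Mean log2 ratio of sample over reference pool (horizontal axis) of every tested member probe, by structural class (vertical axis, with points spread apart at random within a class), for alcohol-fed (left) and pair-fed fetuses (right). Filled points passed the limma adjusted threshold, open points did not, and bars are class medians; Hsp70 and Hsp110 probes run from -3.89 to 1.32 in alcohol-fed fetuses, and the 3 Hsp60 and Hsp10 probes lie between 0.40 and 0.83.

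The Hsp70 and Hsp110 families held most of the member falls. Of 13 tested probes, 1 rose and 4 fell in alcohol-fed fetuses and 1 rose and 4 fell in pair-fed fetuses, with medians of -0.60 and -0.20. Of all probes, 8.02% and 7.86% were higher and 15.5% and 13.5% lower, the background for this and the following class counts. No class was tested against it. The genes that fell were Hspa8 by 1 of its probes, Hspa4l, Hspa1l and Hspa12a, and the gene that rose was Hspa5, by 1 of its probes. The 4 falls and the rise were the same 5 probes in both groups.

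Hspa8 encodes Hsc70, the constitutive cytosolic Hsp70 that folds new proteins and uncoats clathrin vesicles. Its probe M13967 read -5.03 on the lowest, -3.92 on the median and -2.22 on the highest alcohol-fed array, and -5.57, -3.43 and -1.71 on the pair-fed arrays. All 14 arrays were low, and the ranges of the groups overlapped almost in full. The ratio was -3.89 ± 0.40 (SE, n = 7) in alcohol-fed fetuses, 14.8-fold below the pool (limma adjusted p = 1.71e-06), and -3.64 ± 0.40 (n = 7) in pair-fed fetuses, 12.5-fold below it (limma adjusted p = 4.24e-06). The second Hspa8 probe, M19141, read -0.36, 0.27 and 2.17 in alcohol-fed and -0.13, 0.36 and 1.51 in pair-fed fetuses, with most arrays of each group slightly above 0. Its ratios of 0.65 ± 0.30 and 0.42 ± 0.30 did not pass the limma threshold (adjusted p = 0.121 and 0.332). M13967 was below M19141 on 14 of 14 arrays, with a mean difference (M13967 minus M19141) of -4.30 on the log2 scale (SD 0.995). The 2 probes thus give no single direction for Hspa8, and the sequence each probe carries was not used here.

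Hspa5 encodes BiP (Grp78), the Hsp70 of the endoplasmic reticulum and a standard marker of the unfolded protein response. Its probe U16277 read 0.09, 1.67 and 2.33 on the lowest, median and highest alcohol-fed arrays and 0.33, 1.25 and 2.93 on the pair-fed arrays, above the pool on every one. It rose by 1.32 ± 0.33 (n = 7, 2.49-fold, limma adjusted p = 0.00831) in alcohol-fed and by 1.37 ± 0.33 (n = 7, 2.59-fold, limma adjusted p = 0.00693) in pair-fed fetuses. The probe NM_022310 of the same gene read -2.23, 0.85 and 1.57 in alcohol-fed and -2.95, -0.21 and 0.96 in pair-fed fetuses (n = 6). Its ratios of 0.63 ± 0.45 and -0.47 ± 0.49 did not pass (limma adjusted p = 0.317 and 0.507), and it was below U16277 on 12 of 13 arrays. The lowest value of NM_022310 was array 1 in each group.

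Hspa4l is an Hsp110 family member made strongly in testis. It read -2.77, -1.54 and -0.86 on the alcohol-fed arrays and -2.55, -1.17 and -0.56 on the pair-fed arrays, below the pool on all 14. It fell in both groups, to -1.56 ± 0.29 (2.96-fold, limma adjusted p = 0.00114) in alcohol-fed and -1.36 ± 0.29 (2.56-fold, limma adjusted p = 0.00368) in pair-fed fetuses. Its paralogue Hspa4, the ubiquitous Hsp110 protein Apg-2, read 0.06, 0.40 and 1.03 in alcohol-fed and -0.70, -0.33 and 0.59 in pair-fed fetuses. All alcohol-fed arrays were above the pool for Hspa4 and 4 of 7 pair-fed arrays below it, but the groups overlapped. Neither ratio (0.42 ± 0.24 and -0.15 ± 0.24) passed.

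Hspa1l is a testis-specific Hsp70 made after meiosis. It had a value on 6 alcohol-fed arrays (lowest -7.59, median -1.91, highest -1.55) and on 5 pair-fed arrays (-4.28, -2.50 and 0.53). The alcohol-fed arrays were all low, while 1 pair-fed array lay above the pool. It fell in both groups, to -2.79 ± 0.73 (6.92-fold, limma adjusted p = 0.0138) in alcohol-fed and -2.51 ± 0.80 (5.69-fold, limma adjusted p = 0.0368) in pair-fed fetuses. The call in pair-fed fetuses was lost in 9 of 26 other settings, with limma adjusted p up to 0.121, and the probe was not tested in 1 more. Among the 9 were the removal of pair-fed 1, 3, 5 or 7, the values as deposited, scale normalisation and the replicate block. Alcohol-fed 5, at -7.59, lay far from the next array at -2.23, and without it the alcohol-fed ratio was -1.83. Without pair-fed 2 the pair-fed ratio was -3.27.

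Hspa12a is a distant Hsp70 relative with an atypical ATPase domain. It read -5.65, -1.13 and 0.33 on the alcohol-fed and -3.02, -1.84 and -1.24 on the pair-fed arrays. Every pair-fed array was low, and the alcohol-fed arrays spread more widely, down to alcohol-fed 7. It fell in both groups, to -1.54 ± 0.49 (2.91-fold, limma adjusted p = 0.0308) in alcohol-fed and -1.90 ± 0.49 (3.73-fold, limma adjusted p = 0.0115) in pair-fed fetuses. The call in alcohol-fed fetuses was lost in 6 of 26 other settings. Among them was the removal of alcohol-fed 1, 3 or 7 (limma adjusted p = 0.0529 to 0.0709), and without alcohol-fed 7 the ratio was -0.86.

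None of the other Hsp70 members passed. Hspa1a, the heat-inducible Hsp70, was at -0.63 ± 0.40 and -0.51 ± 0.40, and whether its probe tells it apart from the near-identical gene Hspa1b was not tested. Hspa9, the mitochondrial Hsp70 mortalin, was at 0.87 ± 0.36 and 0.31 ± 0.36 (limma adjusted p = 0.0814 and 0.552). Hspa2, needed for meiosis in sperm development, was at -0.60 ± 0.26 and -0.20 ± 0.26. Hspa13, which lies in the endoplasmic reticulum, was at 0.15 and 0.28, and Hspa12b, an endothelial relative of Hspa12a, at -0.84 and -0.18.

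Hsp90b1 encodes Grp94, the Hsp90 of the endoplasmic reticulum. It read -0.24, 0.67 and 2.23 in alcohol-fed and -0.47, 0.50 and 1.55 in pair-fed fetuses, with most arrays above the pool and the groups overlapping. The ratios were 0.85 ± 0.33 and 0.57 ± 0.33 (limma adjusted p = 0.0655 and 0.22), and the difference was 0.28 (95% interval -0.68 to 1.25). The call is near the threshold: 6 of 26 other settings put the alcohol-fed ratio past it, with limma adjusted p from 0.0263 to 0.0479.

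Hspd1 (Hsp60) and Hspe1 (Hsp10), the matrix chaperonin and its lid, are neighbours that share a promoter region and are transcribed away from each other. Hspd1 read -0.33, 0.69 and 1.17 in alcohol-fed and -0.39, 0.39 and 1.93 in pair-fed fetuses, mostly above the pool. Its ratios were 0.59 ± 0.30 and 0.51 ± 0.30, neither past the threshold, and its difference of 0.08 was among the best bounded. Hspe1 was at 0.40 ± 0.31 and 0.78 ± 0.31 (limma adjusted p = 0.353 and 0.0808). The third probe is annotated to Hspe1-ps6, a pseudogene nearly identical to Hspe1, whose ratios of 0.83 and 0.44 are therefore uncertain in origin.

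Among the small heat shock proteins, 1 of 6 tested probes rose in both groups and none fell. It was Hspb9, a small heat shock protein made in testis. Hspb9 read 0.22, 1.44 and 2.27 on the lowest, median and highest alcohol-fed arrays and 1.27, 3.28 and 4.56 on the pair-fed arrays. All 14 arrays were above the pool, and the pair-fed arrays reached further up while the ranges overlapped. It rose by 1.34 ± 0.38 (2.54-fold, limma adjusted p = 0.0186) in alcohol-fed and by 2.75 ± 0.38 (6.71-fold, limma adjusted p = 7.07e-05) in pair-fed fetuses. The alcohol-fed call was lost without alcohol-fed 4 (limma adjusted p = 0.0581).

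The 5 other tested small heat shock proteins did not pass. Hspb1 (Hsp25), the heat-inducible actin-binding member, was at -0.38 ± 0.38 and -0.85 ± 0.38. Hspb8, which works with Bag3 in selective autophagy, was at -0.75 and -0.67. Hspb2 and Hspb3, which pair with each other in muscle, were at 0.29 and -0.27 in alcohol-fed and at -0.37 and -0.47 in pair-fed fetuses, and Hspb11 (Ift25), a protein of cilia, at 0.10 and -0.43. The pair-fed mean of Hspb2 leaned on pair-fed 7 at -5.97, while its median was 0.52 and 5 of 7 arrays lay above the pool. Of 17 probes of muscle marker genes, 2 were higher and 5 lower in alcohol-fed, and 3 higher and 7 lower in pair-fed fetuses. Their medians were -0.03 and -0.09, with ratios from -4.16 to 5.91 and from -3.60 to 4.60. Several of the 17 probes were of 1 gene, Ryr1, so the medians lean on it. The 2 rises in alcohol-fed fetuses were Ryr1 probes (D21797 at 5.91 and X78666 at 0.73), and all the falls were of other genes. The part of the muscle markers in the small heat shock protein values was not tested.

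Class A DnaJ proteins, which keep the zinc finger of bacterial DnaJ, had the highest median of the DnaJ classes in both groups (0.80 in alcohol-fed and 0.65 in pair-fed, over 4 probes), and 1 rose. That was Dnaja1, a cytosolic partner of Hsc70. It read 0.36, 1.23 and 1.84 in alcohol-fed and -0.01, 0.98 and 1.71 in pair-fed fetuses. All arrays but 1 lay above the pool, and the groups overlapped. It rose by 1.14 ± 0.28 (2.21-fold, limma adjusted p = 0.00811) and by 0.81 ± 0.28 (1.75-fold, limma adjusted p = 0.0485). The pair-fed call was lost in 17 of 26 other settings, among them the removal of any of 11 single arrays (all but alcohol-fed 6, pair-fed 3 and pair-fed 6), with limma adjusted p up to 0.138. Dnaja2 was at 0.74 and 0.85 (pair-fed limma adjusted p = 0.0545), the mitochondrial Dnaja3 at 0.85 and 0.50, and Dnaja4 at -0.76 and -0.20.

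Class B had 13 tested probes, of which none passed in alcohol-fed and 1 fell in pair-fed fetuses, with medians of -0.20 and 0.10. The probe was that of Dnajb7. It read -2.41, -1.58 and 0.99 in alcohol-fed (n = 6) and -2.91, -1.35 and -0.44 in pair-fed fetuses, where every array was low. It fell to -1.47 ± 0.40 (2.77-fold, limma adjusted p = 0.0165) in pair-fed fetuses, a call lost without pair-fed 4 (limma adjusted p = 0.0574). In alcohol-fed fetuses it was at -1.16 ± 0.44 (limma adjusted p = 0.0621). There 4 of 26 other settings put it past the threshold (limma adjusted p = 0.00728 to 0.0377), among them the removal of alcohol-fed 6 (-1.59). Dnajb1, the heat-inducible Hsp40 that partners the inducible Hsp70, was at 0.34 ± 0.35 and 0.29 ± 0.35. Its lowest alcohol-fed value was -2.39 on alcohol-fed 6, and without that array the alcohol-fed ratio was 0.80 and passed (limma adjusted p = 0.0352). Dnajb6, a suppressor of polyglutamine aggregation, was at 0.64 ± 0.31 and 0.75 ± 0.31. Dnajb11 (ERdj3), a BiP cofactor, was at -1.21 ± 0.50 and -1.28 ± 0.54 (limma adjusted p = 0.0861 and 0.0976).

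Class C, which shares only the J domain, had 28 tested probes. In alcohol-fed fetuses 3 rose and 1 fell, in pair-fed fetuses 2 rose, and the medians were 0.07 and 0.27. Dnajc7 (Tpr2), which binds both Hsp70 and Hsp90 through its TPR repeats, read 0.57, 1.58 and 2.27 in alcohol-fed and 0.07, 1.41 and 2.29 in pair-fed fetuses. All 14 arrays were above the pool. It rose by 1.50 ± 0.31 (2.82-fold, limma adjusted p = 0.00251) and by 1.13 ± 0.31 (2.19-fold, limma adjusted p = 0.0157). The pair-fed call was lost without pair-fed 7 (limma adjusted p = 0.0504).

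Dnajc14, an endoplasmic reticulum membrane protein that aids receptor export, read -0.24, 1.13 and 1.67 in alcohol-fed and -0.24, 1.19 and 1.74 in pair-fed fetuses, nearly the same range. It rose by 1.05 ± 0.31 (2.07-fold, limma adjusted p = 0.0212) in alcohol-fed fetuses and was at 0.83 ± 0.31 (limma adjusted p = 0.0615) in pair-fed fetuses. The call was lost without alcohol-fed 3, 6 or 7 (limma adjusted p = 0.0518 to 0.0618). Dnajc15 (MCJ), which restrains complex I in the mitochondrial inner membrane, read -1.31, 0.70 and 3.68 in alcohol-fed and 0.41, 1.15 and 3.01 in pair-fed fetuses. The pair-fed arrays were all above the pool, and the alcohol-fed range enclosed theirs. It rose by 1.42 ± 0.48 (2.67-fold, limma adjusted p = 0.0432) in pair-fed fetuses and was at 1.04 ± 0.48 (limma adjusted p = 0.12) in alcohol-fed fetuses. That call was lost in 14 of 26 other settings, among them the removal of alcohol-fed 1 or 2 or of any pair-fed array but pair-fed 1, with limma adjusted p up to 0.135.

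**Figure D2:**
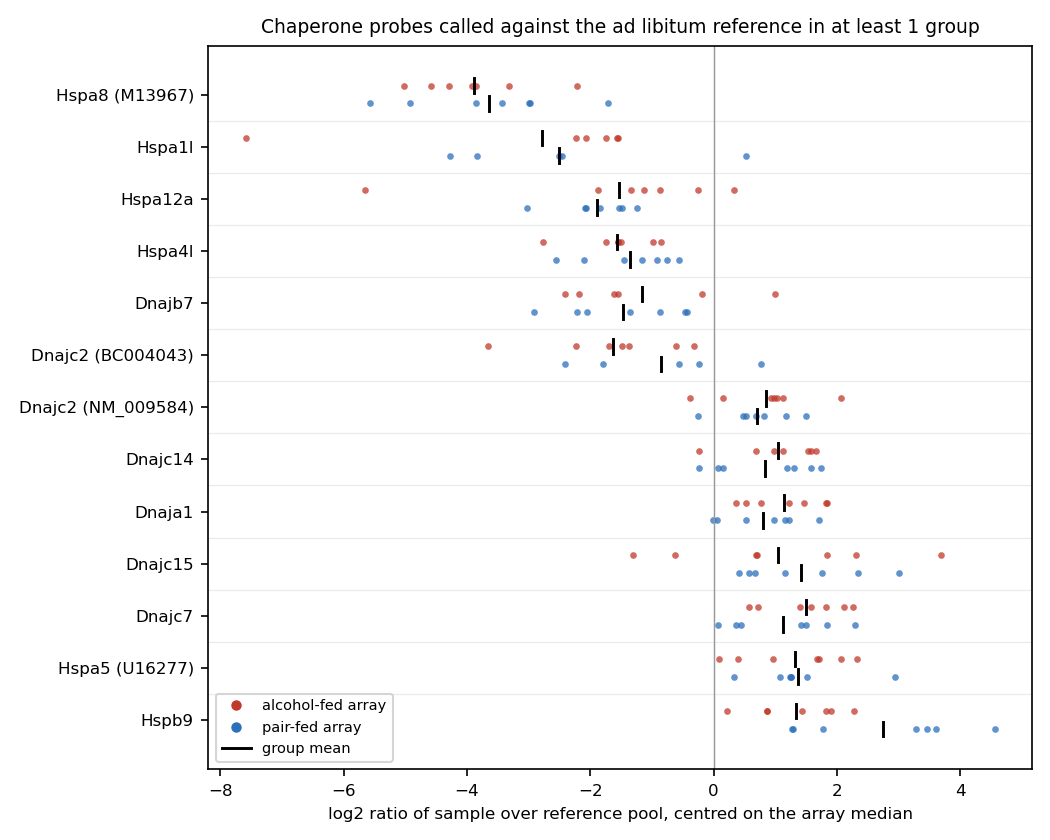
Log2 ratio to the reference pool on each array (horizontal axis) of the member probes called in at least 1 group (vertical axis). Each point is 1 array, coloured by group, and black bars are group means; the M13967 probe of Hspa8 lies below 0 on all 14 arrays and the probes of Dnajc7 and Hspb9 above 0 on all 14.

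Grouped by compartment, the mitochondrial chaperones lay above the pool at the median and those of testis below it. These lists overlap with the classes and were drawn up with earlier results of these data known. Of 8 mitochondrial probes, 6 had a ratio above 0 in each group (medians 0.67 and 0.51), but 0 passed in alcohol-fed and 1, Dnajc15, in pair-fed fetuses. Among the others, Dnajc30 was at 0.74 and 0.71, Dnajc19, part of the import motor, at -0.36 and -0.91, and Dnajc28 at -1.45 and -1.60. Of 14 probes on the endoplasmic reticulum list, the U16277 probe of Hspa5 passed, in both groups, and the medians were 0.05 and -0.12. Dnajc14, which rose in alcohol-fed fetuses, was not on that list. There Dnajc3 (p58IPK), an inhibitor of the kinase Perk, was at -0.42 ± 0.53 and -1.20 ± 0.63 (n = 5).

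Of 9 testis probes, 1 rose (Hspb9) and 2 fell (Hspa4l and Hspa1l) in alcohol-fed fetuses. In pair-fed fetuses 1 rose (Hspb9) and 3 fell (also Dnajb7), and the medians were -0.58 and -0.26. The background for this list and the next was 15.5% of all probes lower in alcohol-fed and 13.5% in pair-fed fetuses. Of 8 marker genes of male germ cells, 0 were higher and 4 lower in alcohol-fed, and 0 higher and 5 lower in pair-fed fetuses. Their medians were -1.02 and -1.13, and their ratios ran from -5.78 to 0.43 and from -4.82 to 0.63. Their part in the testis chaperone values was not tested. The sex of the fetuses is not given in the labels used here.

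The members on the list of genes raised by heat shock (Hspa1a, Hspa8, Hspb1, Hspb8, Hspd1, Hspe1, Dnaja1, Dnaja4, Dnajb1 and Dnajb4 among those tested) had 12 probes, of which 1 rose (Dnaja1) and 1 fell (M13967 of Hspa8) in each group. Hspa8 is mainly constitutive, and it holds the list's fall. Their medians were -0.20 and 0.04. Between alcohol-fed and pair-fed fetuses their differences ran from -0.56 (Dnaja4) to 0.47 (Hspb1) with a median of -0.10, and 5 of 12 were above 0. The interval excluded a 4-fold difference for all 12 and a 2-fold difference for 1, Hspd1.

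Promoter sequences were searched for exact matches to the elements of these stress responses. A window without a match may still hold an imperfect or more distant element. The 250 bases before each annotated start were taken from RefSeq (GRCm38.p6), which held 54 of the 66 member genes in 70 windows, some genes having several starts. Heat shock factors bind inverted repeats of GAA. The 3-unit form GAANNTTCNNGAA, or its reverse complement TTCNNGAANNTTC, was found in 4 of the 70 windows (5.71%) and in 0.466% of the 32851 windows of all genes. The windows were those of Hspd1, Hspe1 and Dnajb6, which has 2 starts. Both Dnajb6 windows hold the same match, and the Hspd1 and Hspe1 windows hold the same bases read from opposite strands. The 4 windows are thus not 4 separate elements, and the windows of all genes were also counted without merging those that overlap. Hspe1 and Dnajb6 are shown because their windows hold the complete element, with its bases in capitals, 5′ to 3′ on the gene's own strand. The Hspe1 window is chr1:55087898-55088147 (plus strand), and that of Hspd1 (chr1:55087933-55088182, minus strand) covers 215 of the same bases. The Dnajb6 window is chr5:29735648-29735897 (plus strand).
Hspe1: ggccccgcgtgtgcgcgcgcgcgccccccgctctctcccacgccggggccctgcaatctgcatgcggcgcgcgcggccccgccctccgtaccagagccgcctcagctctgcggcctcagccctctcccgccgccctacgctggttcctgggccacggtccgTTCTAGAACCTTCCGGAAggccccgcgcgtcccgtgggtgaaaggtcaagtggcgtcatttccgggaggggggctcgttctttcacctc
Dnajb6: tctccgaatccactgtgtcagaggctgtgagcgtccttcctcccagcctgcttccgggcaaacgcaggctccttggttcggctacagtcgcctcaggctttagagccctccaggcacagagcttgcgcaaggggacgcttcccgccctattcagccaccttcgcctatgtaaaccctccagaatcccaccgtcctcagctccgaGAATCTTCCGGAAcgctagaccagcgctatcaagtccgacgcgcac

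The capitals in Hspe1 run over 2 overlapping matches, which begin 89 and 84 bases before the start. In Dnajb6 the match begins 46 bases before this start. All 3 genes lay above the pool in both groups, with ratios between 0.40 and 0.78, and none passed the threshold. Their differences between alcohol-fed and pair-fed fetuses were 0.08 (95% interval -0.80 to 0.97) for Hspd1, -0.38 (-1.30 to 0.55) for Hspe1 and -0.12 (-1.04 to 0.81) for Dnajb6. The shorter 2-unit forms were less selective: GAANNTTC was in 14.3% of member windows and 6.69% of all, and TTCNNGAA in 11.4% and 7.17%, and every 3-unit match holds both. Among members without the 3-unit form, GAANNTTC was found for Dnaja1, Dnaja4, Dnajc27, Hspa1a, Hspb1 and Hspb3. TTCNNGAA was found for Dnajb4, Dnajc10 and Hsph1.

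The endoplasmic reticulum stress element, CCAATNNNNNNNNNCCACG or its reverse complement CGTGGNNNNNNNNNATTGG, was in the windows of Hspa5, Hsp90b1 and Dnajc3, 4.29% of member windows and 0.113% of all. Its CCAAT part alone was in 35.7% and 33.8%. These 3 are shown with the element in capitals, at chr2:34771840-34772089 (Hspa5, plus strand), chr10:86705445-86705694 (Hsp90b1, minus strand) and chr14:118937682-118937931 (Dnajc3, plus strand).
Hspa5: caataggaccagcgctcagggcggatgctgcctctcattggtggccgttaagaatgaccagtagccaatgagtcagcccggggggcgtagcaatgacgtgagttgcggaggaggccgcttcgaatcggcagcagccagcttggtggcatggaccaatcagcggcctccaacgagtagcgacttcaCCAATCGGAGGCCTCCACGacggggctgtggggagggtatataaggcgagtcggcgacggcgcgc
Hsp90b1: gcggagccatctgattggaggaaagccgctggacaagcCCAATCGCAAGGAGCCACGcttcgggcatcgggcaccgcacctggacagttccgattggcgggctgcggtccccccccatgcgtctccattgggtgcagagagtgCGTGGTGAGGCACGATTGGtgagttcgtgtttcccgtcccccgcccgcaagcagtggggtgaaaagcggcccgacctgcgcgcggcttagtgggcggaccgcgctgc
Dnajc3: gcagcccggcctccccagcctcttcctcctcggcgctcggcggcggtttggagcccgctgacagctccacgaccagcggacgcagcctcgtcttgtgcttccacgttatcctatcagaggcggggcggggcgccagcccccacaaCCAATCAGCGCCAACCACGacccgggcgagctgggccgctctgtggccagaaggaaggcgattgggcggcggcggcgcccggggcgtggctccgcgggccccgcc

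Hsp90b1 holds 2 matches, 1 on each strand, and the Hspa5 match begins 65 bases before the start. The differences between alcohol-fed and pair-fed fetuses were -0.05 ± 0.46 for U16277 of Hspa5, 1.10 ± 0.66 (95% interval -0.30 to 2.50) for NM_022310 of Hspa5, 0.28 ± 0.46 for Hsp90b1 and 0.79 ± 0.82 for Dnajc3. None passed, and the 2 Hspa5 probes gave different sizes. A match is a description of these letters and does not show that a factor was bound.

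**Figure D3:**
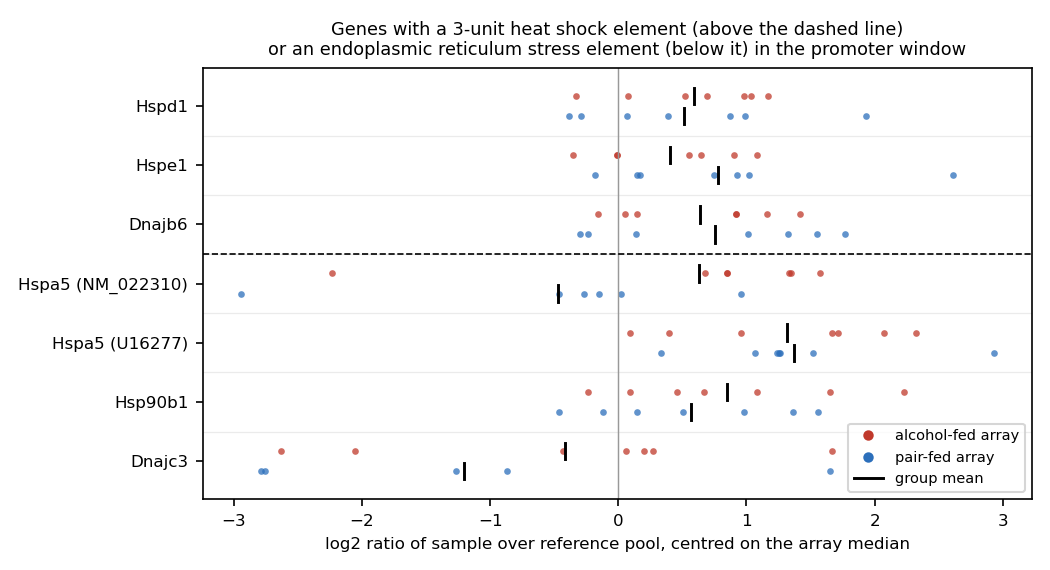
Log2 ratio to the reference pool on each array (horizontal axis) for the probes of the 6 member genes whose promoter window holds a 3-unit heat shock element (above the dashed line) or an endoplasmic reticulum stress element (below it), by group, with bars at the group means. The Hspd1 arrays run from -0.33 to 1.17 in alcohol-fed and from -0.39 to 1.93 in pair-fed fetuses, and the groups overlap for every gene.

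The smallest p of the comparison of alcohol-fed with pair-fed fetuses was that of Hspb9, whose array values are given above. It was lower in alcohol-fed fetuses by an estimated -1.40 ± 0.54 (95% interval -2.54 to -0.26, unadjusted p = 0.0189 in limma). The limma adjusted p was 0.9996, the same as for every other tested member. The estimate was below 0 in every other setting run. The next were Dnajc18, an endoplasmic reticulum membrane J protein, and Dnajb9 (ERdj4), a BiP cofactor of the unfolded protein response. Dnajc18 read -0.53, 0.40 and 0.62 in alcohol-fed and -2.58, -1.15 and 0.62 in pair-fed fetuses (n = 6), with a difference of 1.10 ± 0.53 (unadjusted p = 0.0542 in limma). Dnajb9 read -1.21, -0.77 and 2.23 in alcohol-fed and -0.34, 0.34 and 2.24 in pair-fed fetuses, with a difference of -1.07 ± 0.58 (unadjusted p = 0.0794 in limma). The highest alcohol-fed array of Dnajb9, alcohol-fed 4, stood apart from the other 6.

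Hspa4 followed with a difference of 0.58 ± 0.35 (unadjusted p = 0.112 in limma), then NM_022310 of Hspa5 with 1.10 ± 0.66 (unadjusted p = 0.115 in limma). Dnajc21, which acts in ribosome assembly, read -3.79, -0.64 and 2.17 in alcohol-fed and -1.25, 1.09 and 1.86 in pair-fed fetuses. Its difference was -1.25 ± 0.79 (95% interval -2.92 to 0.41, unadjusted p = 0.132 in limma), -0.73 without alcohol-fed 6 and -2.03 without the 3 arrays that stood apart. In each of these the ranges of the groups overlapped, and 5 of the 68 estimates were at least 2-fold in size. By class, the median difference was -0.11 for Hsp70 and Hsp110, 0.33 for small heat shock proteins and 0.08 for Hsp60 and Hsp10. It was 0.12, 0.05 and 0.08 for DnaJ A, B and C. The uncertainty of these class medians was not estimated.

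**Figure D4:**
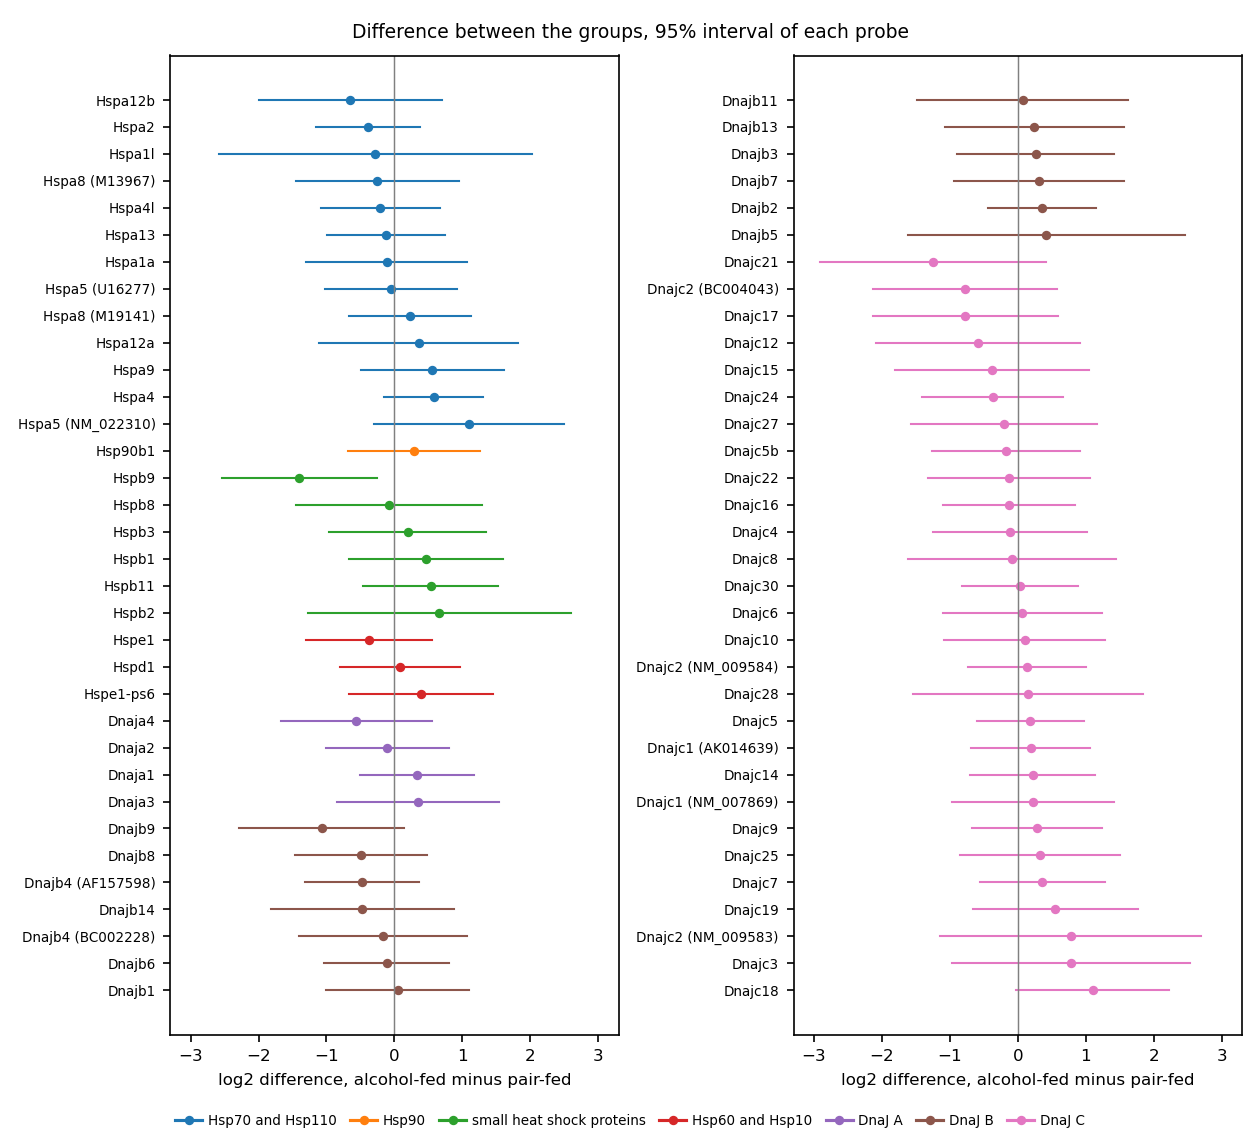
Estimated difference (alcohol-fed minus pair-fed, log2) of each tested member probe (vertical axis) with its 95% interval (horizontal axis), coloured by class and ordered by size within a class. The estimates run from -1.40 (Hspb9) to 1.10, the interval of Hspb9 is the one that leaves out 0, and no probe passed the adjusted threshold.

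Of the members, 5 genes had more than 1 tested probe, and their probes did not give the same call in 3 of 5 genes in alcohol-fed and 2 of 5 in pair-fed fetuses. Over the 996 genes of the array with more than 1 tested probe, calls differed in 41.3% and 37.4%. The median range between probes of a gene was 0.69 and 1.55 for the 5 members and 0.922 and 0.944 for the 996 genes. Hspa8 and Hspa5 are described above.

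Dnajc2 (Mpp11, zuotin), a ribosome-bound partner of Hsp70, had 3 probes, called in opposite directions in alcohol-fed fetuses. BC004043 read -3.65, -1.49 and -0.31 in alcohol-fed and -2.41, -0.56 and 0.77 in pair-fed fetuses (n = 5). It fell to -1.62 ± 0.41 (3.08-fold, limma adjusted p = 0.0113) in alcohol-fed fetuses and was at -0.85 ± 0.49 in pair-fed fetuses (limma adjusted p = 0.224). NM_009584 read -0.38, 0.99 and 2.07 in alcohol-fed and -0.25, 0.69 and 1.50 in pair-fed fetuses. It rose by 0.84 ± 0.29 in alcohol-fed fetuses (limma adjusted p = 0.0451) and was at 0.71 ± 0.29 in pair-fed fetuses (limma adjusted p = 0.0924). That rise was lost in 13 of 26 other settings, with limma adjusted p up to 0.144. Among them was the removal of any of 8 single arrays (alcohol-fed 1, 2, 4, 6 or 7, pair-fed 1, 2 or 5). NM_009583 was at -0.03 ± 0.65 and -0.81 ± 0.65. BC004043 lay below NM_009584 on 11 of 12 arrays, by a mean difference of -2.04, so these data give no single direction for Dnajc2.

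Dnajb4 and Dnajc1 had 2 probes each, none of them called. For Dnajb4, a heat-inducible class B protein, AF157598 was at -0.03 and 0.44 and BC002228 at -0.53 and -0.36, and the first was higher on 10 of 14 arrays. For Dnajc1 (ERdj1), AK014639 was at 0.46 and 0.27 and NM_007869 at -0.02 and -0.24, and the first was higher on 10 of 14 arrays.

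**Figure D5:**
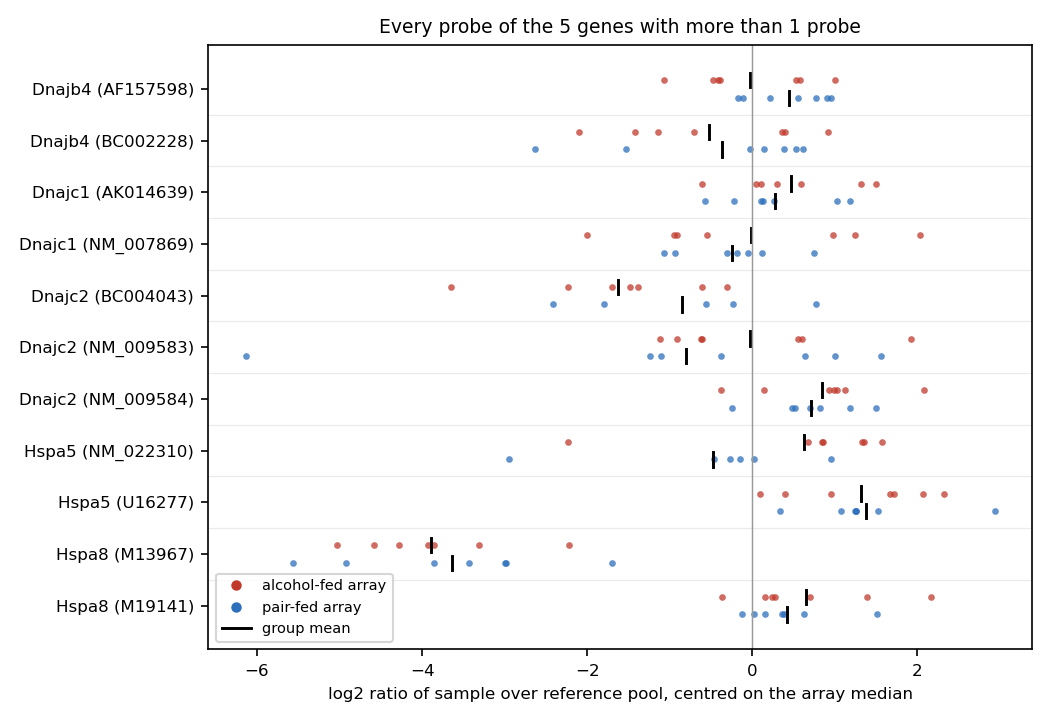
Log2 ratio to the reference pool on each array (horizontal axis) for every probe of the 5 member genes with more than 1 probe (vertical axis), by group, with bars at the group means. The M13967 probe of Hspa8 lies below M19141 on 14 of 14 arrays, and the BC004043 probe of Dnajc2 below NM_009584 on 11 of 12.

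The 4 probes that were not tested had too few values in at least 1 group. Dnajb12 read -2.46, -1.65 and 0.55 on 6 alcohol-fed and 0.10, 0.82 and 5.15 on 3 pair-fed arrays. Hspa14, a ribosome-bound Hsp70, had values on 4 alcohol-fed arrays, from -0.17 to 2.26, and on 2 pair-fed arrays, -0.83 and 2.38. Hsph1 (Hsp105), the heat-inducible Hsp110, ran from 0.77 to 1.01 on 3 alcohol-fed and from -2.03 to 2.85 on 5 pair-fed arrays. Hspb7, a heart and muscle member, ran from -4.20 to 3.74 on 4 alcohol-fed arrays and read -1.77 and 3.27 on 2 pair-fed arrays.

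The other genes of the chaperone network were read from lists drawn up with earlier results of these data known. Over 100 tested probes, 0 passed between alcohol-fed and pair-fed fetuses, 17 passed against the pool in alcohol-fed and 12 in pair-fed fetuses, where 23.5% and 21.3% of all probes passed. A call in 1 group alone therefore does not show that the groups differ at that probe. The list of heat shock factors and their regulators had 12 probes, which also took in Cryaa, Cryab, Serpinh1 and Hspbap1, genes of other kinds. Of the 12 probes, 2 rose and 2 fell in alcohol-fed and 1 rose and 2 fell in pair-fed fetuses. Cryaa and Cryab passed in neither group. Hsf4, the heat shock factor of the lens, fell in both, to -2.39 ± 0.35 in alcohol-fed (limma adjusted p = 9.12e-05) and -2.21 ± 0.35 in pair-fed fetuses (limma adjusted p = 0.000214). Sirt1, a deacetylase that acts on Hsf1, rose by 1.15 and 1.10 (limma adjusted p = 0.035 and 0.0449). Serpinh1 (Hsp47), the collagen chaperone, gave no single direction in alcohol-fed fetuses: its probe J05609 was at 0.94 ± 0.29 and passed (limma adjusted p = 0.0284), while NM_009825 was at -1.07 ± 0.42 and did not (limma adjusted p = 0.0727). Hspbap1, a partner of small heat shock proteins, fell to -1.54 ± 0.37 in pair-fed fetuses (limma adjusted p = 0.00907). In alcohol-fed fetuses it was at -1.05 ± 0.37 (limma adjusted p = 0.0517). The remaining call was 1 of 2 probes of Hsf2, a heat shock factor of development, named after its values were seen: S79629 was at -1.40 ± 0.47 in alcohol-fed (limma adjusted p = 0.0402) and 0.05 in pair-fed fetuses, and NM_008297 at -0.57 and -0.15.

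Of 26 probes of Hsp70 and Hsp90 co-chaperones, 2 rose and 2 fell in alcohol-fed and 2 rose and 1 fell in pair-fed fetuses. Itgb1bp2 (melusin), a CHORD protein of muscle, fell to -3.64 ± 0.51 (limma adjusted p = 0.000102) in alcohol-fed and -3.44 ± 0.43 (limma adjusted p = 3.45e-05) in pair-fed fetuses. Ptges3 (p23), which closes the Hsp90 cycle, rose by 2.09 ± 0.51 (limma adjusted p = 0.00815) and by 2.05 ± 0.51 (limma adjusted p = 0.0098). Unc45a, a myosin chaperone, rose by 0.98 ± 0.31 in alcohol-fed fetuses (limma adjusted p = 0.0317) and was at 0.88 ± 0.31 in pair-fed fetuses (limma adjusted p = 0.0541). Fkbp5, an Hsp90-bound immunophilin, rose by 0.73 ± 0.25 in pair-fed fetuses (limma adjusted p = 0.0448) and was at 0.57 ± 0.25 in alcohol-fed fetuses (limma adjusted p = 0.101). The other fall in alcohol-fed fetuses was Sugt1 (-1.28, and -1.01 in pair-fed fetuses, limma adjusted p = 0.117 there), also named after its values were seen. Of 18 probes of the cytosolic chaperonin TRiC and prefoldin, 4 rose in alcohol-fed fetuses and none fell (Cct8 by 1.16 ± 0.37, Pfdn1 by 0.84 ± 0.27, Cct5 by 0.89 ± 0.31, and 1 of 2 probes of Tcp1, named after its values were seen, by 1.17, where the other was at 0.79 and did not pass), and 0 passed in pair-fed fetuses. The medians of that list were 0.68 and 0.55.

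Of 30 probes of endoplasmic reticulum folding and the unfolded protein response, 3 fell in alcohol-fed, and 3 rose and 1 fell in pair-fed fetuses. Sec63, the J protein of the translocon that carries no Dnaj symbol here, fell to -1.46 ± 0.43 (limma adjusted p = 0.0212) in alcohol-fed and -2.30 ± 0.43 (limma adjusted p = 0.00112) in pair-fed fetuses. Hyou1 (Grp170), the exchange factor of BiP, fell to -1.18 ± 0.41 in alcohol-fed fetuses (limma adjusted p = 0.0457) and was at -0.02 in pair-fed fetuses. Ern1 (Ire1), a sensor of the unfolded protein response, fell to -0.99 ± 0.34 in alcohol-fed fetuses (limma adjusted p = 0.0453). The rises in pair-fed fetuses were Derl1 (1.16 ± 0.31), Erp29 (1.27 ± 0.34) and, named after its values were seen, Atf6 (1.14). Of 14 probes of mitochondrial folding and proteolysis, 1 rose and 1 fell in each group. Htra2, a protease of the intermembrane space, rose by 5.31 ± 0.33 and 5.32 ± 0.33 (limma adjusted p = 1.74e-09 and 1.54e-09). Grpel2, an exchange factor of mortalin, fell to -2.39 ± 0.78 (limma adjusted p = 0.0345) in alcohol-fed and -3.68 ± 0.84 (limma adjusted p = 0.00568) in pair-fed fetuses.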

How the data were processed

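The values were the authors' deposited log2 ratios per probe, 1 column per array. The log base was inferred from the values, and no source used here gives their background correction or normalisation. Probes were named through the platform annotation (16635 with 1 symbol, 113 with several and 4834 with none), and all 66 member genes matched RefSeq by gene number. Exact 0 and the highest value (16.61) were set to missing, each array was centred on its median, and probes with at least 4 arrays per group were kept (706 left out). One limma 3.58.1 model (R 4.3.3) was fitted to 14 arrays. The difference of the groups and the distance of each from 0 were tested with Benjamini-Hochberg adjustment over 20876 probes. No 2 arrays shared over 0.287% of values. Each array's precision cannot be given as a depth: 7 arrays per group limit it.

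The members, lists and tests were chosen with earlier results of these data known. Array values are given for up to 12 called members with the smallest p and the 6 with the smallest p between the groups, and every probe of genes with several. Up to 3 other genes per list are named, by smallest p. Other settings were values as deposited, quantile and scale normalisation, array weights, other filters, a replicate block and leaving out arrays.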

Additional observations from a re-analysis of the deposited data

Results flagged for a closer look

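Single arrays that lay far from the rest of their group were looked for in 136 combinations of a tested member probe and a group, by Dixon's criterion at the 95% level. Chance flags about 1 in 20 such groups, and 15 (11%) passed, in 13 probes. All but 2 of them were low values. Among the named probes, Hspa1l read -7.59 on alcohol-fed 5 (next -2.23), Hspa12a -5.65 on alcohol-fed 7 (next -1.88), and NM_009583 of Dnajc2 -6.13 on pair-fed 7 (next -1.24). Dnajb9 read 2.23 on alcohol-fed 4 (next -0.20). NM_022310 of Hspa5 read -2.23 on alcohol-fed 1 (next 0.67) and -2.95 on pair-fed 1 (next -0.46).

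Of the other members, Dnajb5 read -3.90 on alcohol-fed 6 and -6.44 on pair-fed 5, Dnajb1 -2.39 and Dnajc8 -5.58 on alcohol-fed 6, and Dnajc12 -3.43 and Dnajc19 -3.57 on pair-fed 3. Dnajc28 read -5.50 and Hspe1 2.61 on pair-fed 4, and Hspb2 read -5.97 on pair-fed 7. Alcohol-fed 6 held 3 of these values. It was among the 3 arrays with the most placeholder values, and the part of those in the pattern was not tested.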

How the results depend on the processing

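Between alcohol-fed and pair-fed fetuses 0 member probes passed under every setting run. Leaving out single arrays gave 9 to 13 member calls against the pool in alcohol-fed and 6 to 12 in pair-fed fetuses, and 5 to 19 and 10 to 17 calls among the other chaperone genes. The 5 was without alcohol-fed 7, and these calls fell to 10, 9, 9, 9 and 11 without alcohol-fed 1, 3, 4, 5 and 6. Quantile normalisation gave 17 member calls in alcohol-fed fetuses, and 26 and 20 calls among the other chaperone genes in alcohol-fed and pair-fed fetuses. Array weights gave 29 of the latter in alcohol-fed fetuses. The calls over all probes moved as well. In alcohol-fed fetuses, 4913 in the main setting became 5941 with quantile normalisation and 6334 with array weights. Leaving out single arrays gave 3605 to 5344 in alcohol-fed and 3266 to 4889 in pair-fed fetuses. Without the 3 arrays whose deviations correlate most, a setting chosen after seeing the data, there were 7 member calls and 9 among the other genes in alcohol-fed fetuses. Without the 3 arrays with the most placeholders, also chosen afterwards, members had 9 rises and 6 falls in alcohol-fed and 3 and 5 in pair-fed fetuses. Of all probes, 4799 and 3814 were called there. NM_022310 of Hspa5 turned sign in pair-fed fetuses, to 0.0205, without pair-fed replicate 1, and was lowest, at -0.76, without pair-fed replicate 2. Further probes, none of them called, turned sign. In alcohol-fed fetuses, AF157598 of Dnajb4, NM_007869 of Dnajc1 and NM_009583 of Dnajc2 were at 0.089, 0.102 and 0.098 as deposited, 0.124, 0.248 and 0.146 with quantile normalisation, and 0.0105, 0.276 and 0.068 with array weights. The first 2 were at 0.0046 and 0.073 with scale normalisation, and 0.139 and 0.309 without the arrays with most placeholders, and the first at 0.126 without those that correlate most. Leaving out single arrays they ran from -0.21 to 0.139, -0.36 to 0.309 and -0.35 to 0.156. In pair-fed fetuses BC002228 of Dnajb4 ran from -0.53 to 0.017 (without pair-fed 5) and NM_009583 of Dnajc2 from -1.20 to 0.081 (without pair-fed 7). In all, 1075 values of single probes under other settings kept direction and side of the threshold, 69 lost the call, 7 gained it and 29 turned sign. That tally covers the called probes, the 6 with the smallest p between the groups and the probes of genes with several. Few gains could therefore appear in it. Members outside it gained calls too, such as Hsp90b1 in 6 settings in alcohol-fed fetuses, and Dnaja2 and Dnajc16 in 5 settings each in pair-fed fetuses. The cause of these changes was not tested. The calls of Dnaja1, Dnajc7, Hspa4l and M13967 of Hspa8 in alcohol-fed, and of Hspa12a, Hspa4l, U16277 of Hspa5, M13967 of Hspa8 and Hspb9 in pair-fed fetuses held in all 26 settings. The labels do not say whether same-numbered arrays of the groups were pairs. Their deviations correlated at -0.096 to 0.234, and 2 of 7 alcohol-fed arrays were most like their own number, which cannot settle it. With the replicate number as a block, 10 and 7 member probes were called, and 4231 and 3978 of all probes. With 7 arrays a group, the comparison of the groups cannot show 2-fold differences in most members, and spot brightness over background is unknown.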
